A study of Sus scrofa with 23 samples.

Results

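Ubiquitin conjugating enzymes (E2s, the UBE2 genes) and 3 families of deubiquitinases (USP, OTUD and UCHL genes) were followed through porcine pre-implantation development. Members were the genes of the deposited expression table whose symbol begins with UBE2 and a letter, USP and a digit, OTUD, or UCHL and a digit. This rule was met by 67 of the 8603 genes listed, 24 of them UBE2, 34 USP, 6 OTUD and 3 UCHL genes. The gene name table holds 88 such symbols, and the other 21 (UBE2N, USP5 and USP18 among them) were not analysed here. RNA had been measured in 23 libraries, 1 for each condition, so no value has a replicate error and single conditions were not tested against each other.

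The IV-D group was Duroc embryos fertilized in vivo, flushed from sows after insemination by 1 Duroc boar, with 8 libraries: MII oocytes matured in vivo (OC), 1-cell (1C), 2-cell (2C), 4-cell (4C) and 8-cell (8C) embryos, morulae (MO), and the blastocyst as a part holding inner cell mass with trophectoderm (IT) and a part of trophectoderm alone (TE). The NT-D group was clones made by somatic cell nuclear transfer from fibroblasts of the ear of that same boar, then 1 year of age, and the NT-LW group clones from such cells of a Laiwu boar of the same age, Laiwu being a Chinese breed. Both clone groups were cultured in vitro at low oxygen, in contrast to IV-D embryos. The study names PZM3 medium for the step before fusion and no medium for the later culture. Each clone group thus came from 1 male cell line. An IV-D pool mixed the male and female embryos of a stage that, by the study's account, were collected from a pregnant sow. The study classed all IV-D embryos as paternal half-siblings. Where IV-D stages came from different sows, sow and stage cannot be told apart. The IV-D oocytes came from sows 2 years of age. The 8 NT-D libraries include the oocytes matured in vitro as nuclear recipients, labelled NT-D-OC and Duroc. The study, however, names hybrid sows as the source of recipient oocytes, and ovaries from a slaughterhouse. NT-LW has 7 libraries from 1C onward. Several oocytes or embryos were pooled for a library, and levels are relative to the RNA of that pool. Such levels do not show the amount of RNA per embryo. A change in 1 gene and a change in the rest of the RNA of a pool cannot be told apart.

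Ubiquitin is a small protein that an E1 enzyme activates, an E2 carries and an E3 ligase helps to attach to substrates, and chains of it send proteins to the proteasome or change their interactions. Deubiquitinases cut it off again. In oocytes and early embryos this system removes cyclins, maternal proteins and chromatin marks while the embryo passes from stored maternal RNA to its own transcription.

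Depth was 14952784 to 22991067 fragments per library, recovered as whole fragments from the steps of the FPKM values, which are fragments scaled to gene length and library size. Among the 1541 values of the members 14, in OTUD1, OTUD7B, UBE2L6 and USP2, rest on at most 3 fragments. The table is by its name one of differentially expressed genes, so its other genes are no sample of all genes. Oocyte markers (9 of 12 in the table) summed to 1670 to 3251 FPKM in IV-D and 1939 to 3221 FPKM in clone libraries before 4C, where none was at 0. At 4C the sum was 501 FPKM in IV-D against 1613 in NT-D and 1532 in NT-LW, at 8C 21.5 against 195 and 244, and at MO 8.61 against 191 and 31.0. Trophectoderm markers (7 of 9) summed to 1261 to 2922 FPKM in the 6 blastocyst libraries, KRT8 and KRT18 far above GATA2 and GATA3. Inner cell mass markers (6 of 9) summed to 57.4 to 136 FPKM in IT and 26.1 to 43.5 FPKM in TE libraries, with NANOG at 0 in all 3 TE libraries. Fibroblast markers (5 of 10) summed to 0.0920 to 31.5 FPKM and cumulus markers (2 of 8) to 0 to 19.6 FPKM. Size factors from median ratios ran from 0.548 in the IV-D 2C library to 1.54 in the NT-D MO library. Counts of higher and lower genes depend on scaling. Where scaling moved the split of members or of all genes by over 10 points, the scaled counts follow with the scaled shares of all genes in square brackets.

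**Figure D1:**
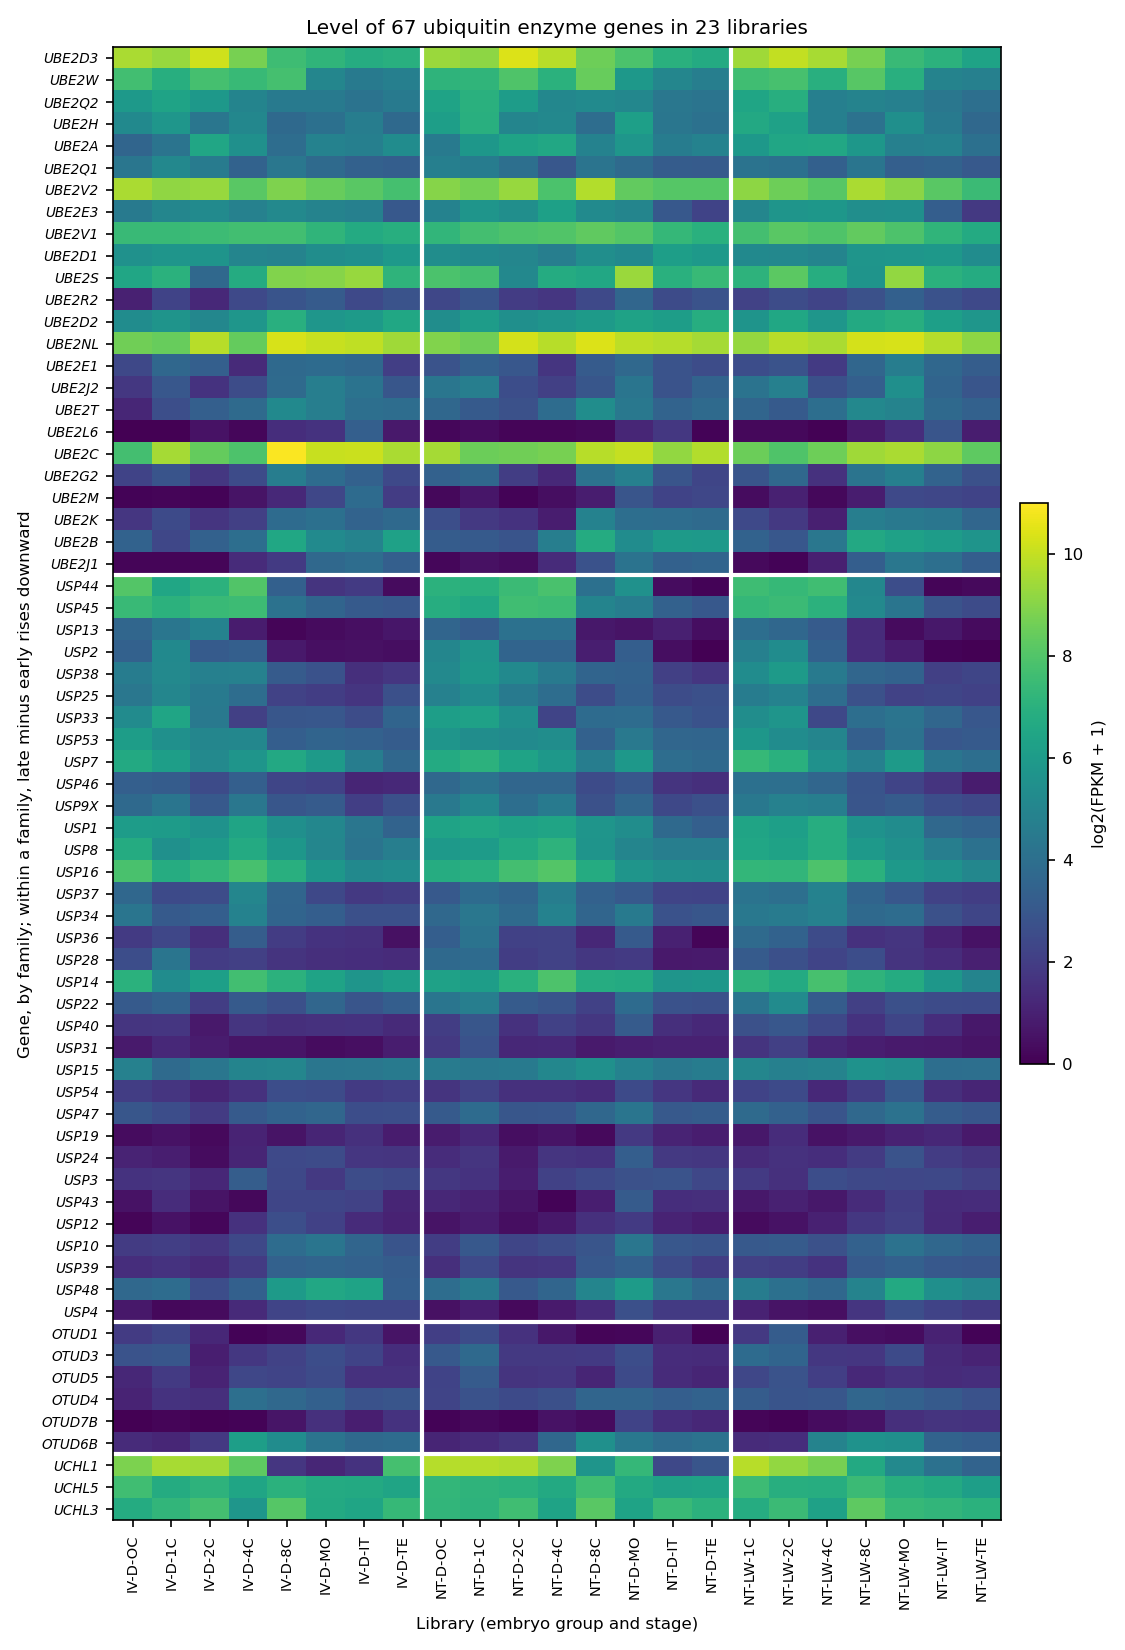
Level of the 67 genes (rows, by family) in the 23 libraries (columns), as log2(FPKM + 1) from dark (0) to yellow (11). Within a family genes are ordered by the late minus early difference, and UCHL1, USP44 and USP45 are bright up to 4C and dark from 8C in most libraries, whereas UBE2J1 and UBE2K are the reverse.

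Together the members held 2085 FPKM (NT-LW TE) to 6928 FPKM (NT-D 2C), or 0.302% to 1.34% of the summed FPKM of the table. A median member stood at 6.51 to 19.9 FPKM. In every library most of this sum lay in E2s, from 1624 to 5236 FPKM, against 233 to 1476 FPKM for USP genes. The highest mean levels per length were those of UBE2NL (837 FPKM), UBE2C (653), UBE2D3 (484), UBE2V2 (441) and UBE2S (225) among E2s. Among the USP genes they were USP16 (119 FPKM), USP14 (105), USP44 (90.2), USP45 (83.0) and USP7 (60.8). Of the 67 genes 46 had at least 1 FPKM in all 23 libraries, and 13 never reached 10 FPKM.

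The 11 libraries up to 4C (early) were set beside the 12 from 8C onward (late), a split known from earlier results on these data and given as a description. USP genes were mostly early. For 18 of 34 the early median exceeded the late median by more than 1 on the log2(FPKM + 1) scale, where 29.8% of all genes of the table did, and for 4 the late median was that much higher, against 34.4% of all genes. Among 24 UBE2 genes 4 were early and 7 late by this measure. After median-ratio scaling the USP counts were 18 and 3, whereas the UBE2 counts turned to 7 and 4, where 33.9% of all genes were early and 30.6% late.

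Without any overlap between early and late libraries, 7 members lay higher early and 4 higher late. For all genes of the table the shares were 13.4% and 15.3%, so these counts are below the background. The 7 were UBE2D3, UCHL1, USP25, USP38, USP44, USP45 and USP53. The 4 were UBE2B, UBE2J1, UBE2K and USP4. Median-ratio scaling gave 12 and 2, where 19.5% and 12.9% of all genes were so, with UBE2B and USP4 no longer among the latter.

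Members that act with the anaphase-promoting complex (APC/C), the E3 that ends mitosis, were led in level by UBE2C. UBE2C, which places the first ubiquitin on APC/C substrates, stood in IV-D at 207, 727, 336 and 242 FPKM from OC to 4C and then at 1938 (8C), 1065 (MO), 1110 (IT) and 786 FPKM (TE). The 8C value was 8.02-fold that at 4C, the largest difference upward of any member at that step on the log2 scale. In NT-D UBE2C stood at 731, 373, 388 and 424 FPKM up to 4C, 896 at 8C, 1037 at MO, 588 in IT and 850 in TE. In NT-LW it stood at 367, 249, 375, 686, 786, 565 and 306 FPKM from 1C to TE. Both clone libraries at 8C lay under the IV-D library by more than 2-fold (2.16-fold and 2.83-fold), and the IV-D 8C library was the highest of all 23.

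UBE2S, which extends chains on APC/C substrates, was like UBE2C higher at 8C than at 4C in IV-D. In IV-D it stood at 90.1, 128, 12.03, 109, 479, 514, 638 and 142 FPKM from OC to TE. In NT-D the values were 237, 207, 34.3, 109, 95.1, 657, 127 and 171 FPKM, and in NT-LW, from 1C, 137, 302, 114, 50.1, 592, 130 and 108 FPKM. At 4C the 3 groups lay within 109 to 114 FPKM, at 8C the IV-D library was 5.04-fold above NT-D and 9.55-fold above NT-LW, and at MO the clone libraries were at the IV-D level again. In IT both clone libraries were once more under the IV-D library, at 127 and 130 against 638 FPKM. The inner cell mass markers summed to 136 FPKM in the IV-D IT library, 57.4 in NT-D and 62.9 in NT-LW, and their part in this and the other IT differences was not tested.

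The promoters of both genes are shown because the genes that encode these partners at the APC/C were both higher at 8C in IV-D, and with them those of UCHL1 and USP44, which were lower at the same step. Each window runs from 250 bases before to 50 from the start of the first RefSeq mRNA (Sscrofa11.1), 5′ to 3′ on the gene's strand. Capitals mark CCAAT (or ATTGG on the other strand) and the CHR motif TTTGAA (or TTCAAA), which are known from promoters of cell cycle genes.
UBE2C, chr17:48018153-48018452, plus strand: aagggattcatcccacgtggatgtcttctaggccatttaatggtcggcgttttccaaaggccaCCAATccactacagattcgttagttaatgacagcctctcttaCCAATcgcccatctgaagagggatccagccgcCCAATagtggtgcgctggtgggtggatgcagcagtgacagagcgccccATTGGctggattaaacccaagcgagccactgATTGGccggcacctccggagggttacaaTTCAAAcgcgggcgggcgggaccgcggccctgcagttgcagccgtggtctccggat
UBE2S, chr6:59570435-59570734, minus strand: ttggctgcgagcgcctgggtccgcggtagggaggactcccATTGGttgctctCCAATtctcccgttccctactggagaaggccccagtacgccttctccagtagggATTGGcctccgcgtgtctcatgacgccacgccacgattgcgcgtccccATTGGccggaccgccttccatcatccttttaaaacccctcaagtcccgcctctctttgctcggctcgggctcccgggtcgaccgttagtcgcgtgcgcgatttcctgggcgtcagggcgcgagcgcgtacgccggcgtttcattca
UCHL1, chr8:32353516-32353815, plus strand: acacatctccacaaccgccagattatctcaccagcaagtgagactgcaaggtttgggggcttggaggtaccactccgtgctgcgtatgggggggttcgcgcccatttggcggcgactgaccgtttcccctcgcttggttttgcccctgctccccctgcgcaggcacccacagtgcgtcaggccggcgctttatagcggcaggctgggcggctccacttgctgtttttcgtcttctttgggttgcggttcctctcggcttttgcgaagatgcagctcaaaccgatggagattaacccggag
USP44, chr5:87864160-87864459, plus strand: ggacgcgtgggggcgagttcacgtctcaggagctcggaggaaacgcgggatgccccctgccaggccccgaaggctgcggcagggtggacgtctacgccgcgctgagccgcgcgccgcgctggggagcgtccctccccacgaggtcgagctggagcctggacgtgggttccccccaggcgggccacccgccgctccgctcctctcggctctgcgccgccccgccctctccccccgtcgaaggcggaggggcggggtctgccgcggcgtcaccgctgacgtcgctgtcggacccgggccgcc

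The UBE2C window holds 5 CCAAT matches and 1 CHR match, and the UBE2S window 4 CCAAT matches and no CHR match, on both strands together. The UCHL1 and USP44 windows hold neither. These 4 windows do not stand for the other members furthest apart at this step in IV-D. Among those furthest higher, USP48, UBE2B, UCHL3 and UBE2G2 had neither match. Among those furthest lower, USP45 had 1 CCAAT match, and USP53, USP25 and USP38 had neither. Of the 65 members with a RefSeq promoter 3 had at least 4 CCAAT matches, the third being USP1 with 5, against 1.70% of 6812 promoters of genes listed and 1.09% of 19512 promoters of all genes. At least 1 CCAAT match was in 23.1% of the members' windows, 37.6% of those of genes listed and 35.4% of all windows. A CHR match was in 4.62%, 12.6% and 14.0%. The members' windows were richer in GC, with a median of 67.7% against 61.3% for genes listed and 58.7% for all, and GGGCGG, on either strand, was in 81.5%, 63.3% and 50.8%. A match is a description of these letters alone.

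**Figure D2:**
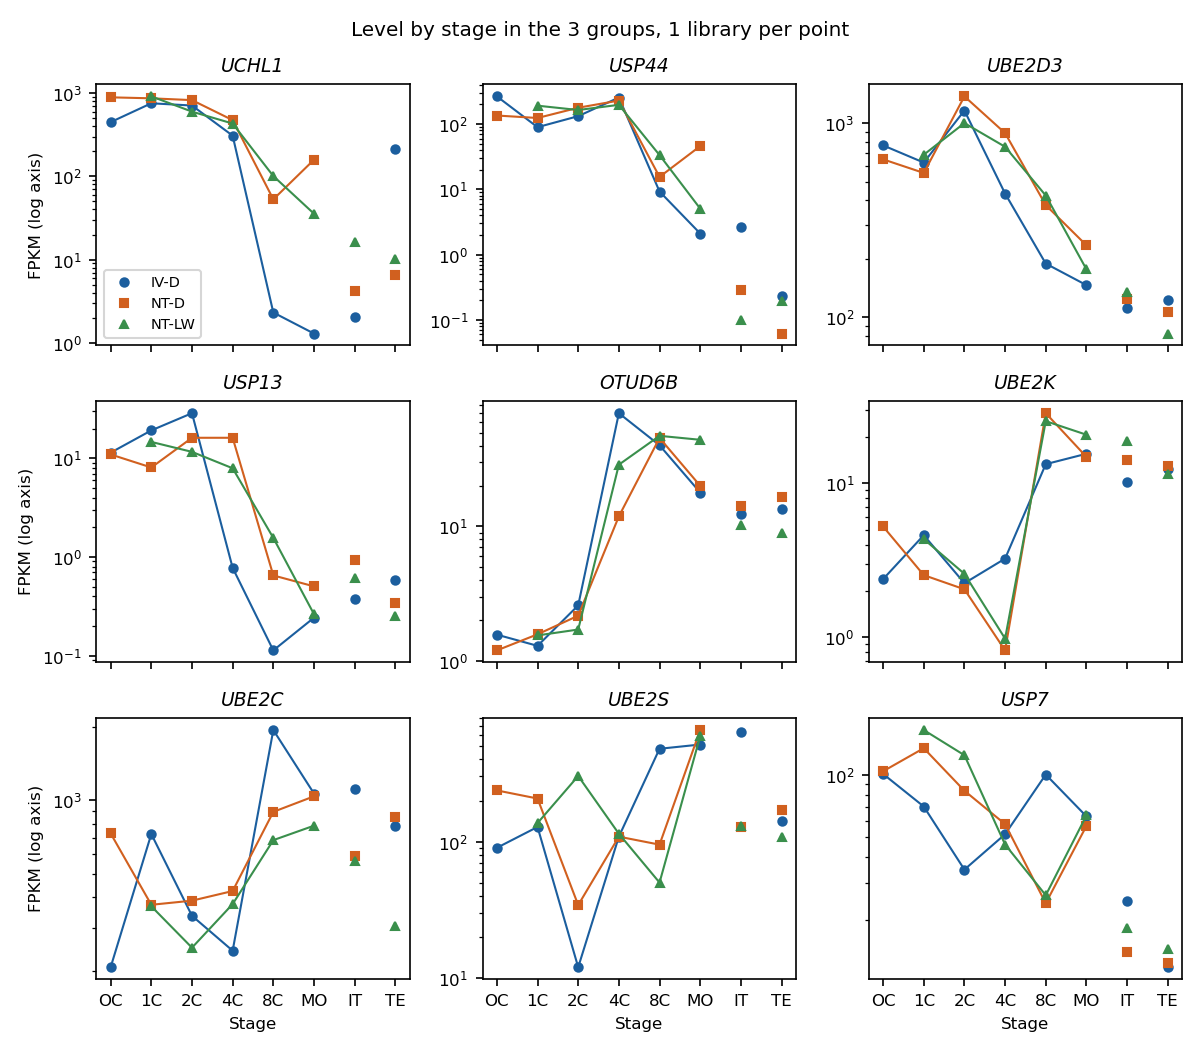
FPKM (log axis) of 9 members by stage, 1 library per point, with circles for IV-D, squares for NT-D and triangles for NT-LW. Lines join OC to MO and the blastocyst parts IT and TE stand alone. The IV-D points of UCHL1 stand at 308 at 4C and 2.32 FPKM at 8C, and those of UBE2C at 242 and 1938.

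The other E2s known to serve the APC/C or many E3s were mixed at the IV-D step from 4C to 8C. UBE2D2 (53.8 to 122 FPKM) and UBE2E1 were higher at 8C, like UBE2C and UBE2S. UBE2D1 was at 31.5 and 29.4 FPKM, and UBE2D3 was lower. UBE2D3, a versatile E2, stood in IV-D at 769, 627, 1163 and 434 FPKM up to 4C and at 189, 146, 112 and 122 FPKM from 8C to TE. In clones it stood at 554 to 1376 FPKM up to 4C and 82.3 to 424 FPKM after it, so early and late did not overlap. Its close relatives did not share this course. UBE2D1 lay at 25.0 to 70.0 FPKM and UBE2D2 at 33.0 to 122 FPKM over all 23 libraries, and reads of these near-identical genes may be split between them. UBE2E1 was at 1.47 FPKM in IV-D 4C and 12.6 FPKM in IV-D 8C embryos.

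UBE2V1 and UBE2V2 pair with UBE2N to build K63-linked chains, which serve signalling and DNA repair. UBE2V2 stood at 182 to 860 FPKM and UBE2V1 at 104 to 324 FPKM, with neither past 2-fold at the IV-D step from 4C to 8C. UBE2NL, a UBE2N-like gene, stood in IV-D at 394, 347, 892, 339, 1283, 1091, 974 and 688 FPKM. It was at 914 and 771 FPKM in NT-D and NT-LW 4C embryos, 2.70-fold and 2.27-fold above IV-D. It closely resembles UBE2N, so its reads may be shared with that gene.

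E2s of other modifiers were low. UBE2M, which carries NEDD8 to cullins, stood in IV-D at 0.0759 to 0.494 FPKM up to 4C, 1.42 at 8C, 4.13 at MO, 13.5 in IT and 2.85 FPKM in TE. Clone IT libraries were at 3.59 and 4.01 FPKM. UBE2L6, the E2 of the interferon-induced modifier ISG15, stood at 9.09 FPKM in IV-D IT, 6.41 in NT-LW IT and 2.48 in NT-D IT, and at no more than 2.07 FPKM elsewhere. In IV-D oocytes and 1C embryos no UBE2L6 fragment was counted, which allows up to 0.109 and 0.140 FPKM by exact 95% Poisson limits.

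Of 4 E2s of degradation at the endoplasmic reticulum in the table, UBE2J1 and UBE2K had no overlap between early and late libraries. UBE2J1, anchored in that membrane, stood at 0.103 to 1.55 FPKM in IV-D up to 4C, then at 2.69, 12.3, 14.0 and 9.17 FPKM. In clones it stood at 0.0700 to 1.54 FPKM up to 4C and at 5.91 to 19.5 FPKM after it. UBE2K stood in IV-D at 2.39, 4.60, 2.25, 3.24, 13.3, 15.5, 10.2 and 12.4 FPKM. In NT-D and NT-LW it was at 0.824 and 0.983 FPKM at 4C and at 28.5 and 25.3 FPKM at 8C, so the clone libraries lay under IV-D at 4C and above it at 8C. UBE2G2 went from 4.73 to 24.1 FPKM between IV-D 4C and 8C embryos, 5.11-fold, and UBE2J2 from 4.89 to 12.8 FPKM. UBE2R2, an E2 of SCF ligases, stood at 1.04 to 11.4 FPKM over all libraries.

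UBE2A and UBE2B, the vertebrate RAD6 enzymes that mark histone H2B and the clamp PCNA, did not share a course. X-linked UBE2A, read in male clones against IV-D pools of both sexes, stood in IV-D at 10.9, 17.6, 89.7, 44.6, 14.3, 28.2, 25.7 and 39.6 FPKM. In clones it was at 82.9 and 90.2 FPKM at 2C and at 94.4 and 94.3 FPKM at 4C, 2.12-fold and 2.11-fold above IV-D at 4C. UBE2B stood in IV-D at 9.89, 4.14, 9.74, 14.9, 92.6, 37.9, 29.0 and 76.9 FPKM, and in clones at 6.28 to 25.3 FPKM up to 4C and 40.1 to 107 FPKM after it. UBE2W, which ubiquitinates protein N-termini, stood at 117 to 218 FPKM in IV-D embryos up to 8C and at 31.8 FPKM at MO. NT-LW morulae were at 122 and NT-D morulae at 58.0 FPKM. UBE2T, the E2 of the Fanconi anaemia pathway, was at 12.9 FPKM in IV-D 4C and 36.8 FPKM in IV-D 8C embryos, with clones at 13.9 and 14.5 and then 40.6 and 33.9 FPKM.

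Among deubiquitinases the highest level was that of UCHL1, an enzyme abundant in neurons and in germ cells. In IV-D it stood at 447, 754, 708 and 308 FPKM from OC to 4C, at 2.32 at 8C, 1.30 at MO and 2.03 in IT, and at 215 FPKM in TE. The 8C value rests on 75 fragments and the TE value on 5054. In NT-D it stood at 888, 864, 822, 473, 52.9, 158, 4.25 and 6.51 FPKM, and in NT-LW, from 1C, at 912, 598, 430, 101, 35.6, 16.4 and 10.2 FPKM. From 4C to 8C it was 133-fold lower in IV-D, against values of 473 and 52.9 FPKM in NT-D and 430 and 101 FPKM in NT-LW. The clone libraries were 22.8-fold and 43.5-fold above IV-D at 8C and 122-fold and 27.5-fold at MO, stages at which the oocyte markers were higher in clones too, and the part of these in the result was not tested. In TE the order turned, with IV-D above both clones, and there the oocyte markers summed to 0.710, 0.990 and 1.93 FPKM. The other members of the family did not follow. UCHL3 stood at 54.0 to 304 FPKM with its lowest value in IV-D 4C and highest in NT-LW 8C embryos, and UCHL5, which works at the proteasome, at 70.5 to 199 FPKM.

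Deubiquitinases of histones were led by USP16 and USP44. USP44, which acts on H2B and in the spindle checkpoint, stood in IV-D at 265, 89.5, 132 and 254 FPKM up to 4C and at 9.26, 2.11, 2.66 and 0.232 FPKM after it. In NT-D it stood at 135, 124, 178, 229, 15.5, 46.0, 0.291 and 0.0619 FPKM and in NT-LW, from 1C, at 191, 164, 197, 33.5, 5.07, 0.0987 and 0.197 FPKM. The NT-D MO library thus lay 21.8-fold above the IV-D one, and in IT both clones lay under IV-D. USP16, an H2A deubiquitinase, stood in IV-D at 227, 110, 156, 219, 122, 55.6, 36.0 and 39.4 FPKM, and both clone groups ended at 33.6 to 47.9 FPKM in IT and TE.

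USP7, which acts on MDM2 and p53, was the clearest deubiquitinase to be lower in clones at 8C. In IV-D it stood at 101, 70.2, 34.9, 51.7, 100, 62.9, 24.6 and 11.9 FPKM. In NT-D 8C and NT-LW 8C embryos it was at 24.1 and 26.3 FPKM, 4.15-fold and 3.80-fold lower, while at 4C (57.8 and 46.1 FPKM) and MO (56.6 and 63.6 FPKM) they were near IV-D. USP3, USP22 and USP36 stayed under 40 FPKM in all libraries.

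At the proteasome, USP14 stood in IV-D at 130, 39.5, 72.5, 202, 134, 82.2, 52.2 and 70.2 FPKM, with 4C the highest stage in each group (239 FPKM in NT-D and 222 in NT-LW). Of the enzymes linked to DNA repair, USP1, which releases ubiquitin from FANCD2 and PCNA, went from 84.4 FPKM in IV-D 4C embryos to 10.3 FPKM in TE. USP48 stood in IV-D at 9.22 FPKM at 4C, 62.7 at 8C, 96.4 at MO, 81.7 in IT and 8.89 FPKM in TE. The IV-D IT part was thus 9.20-fold above TE, while NT-D had 19.7 and 12.7 FPKM and NT-LW 43.4 and 32.0 FPKM in these parts. USP47 stood at 2.81 to 18.3 FPKM and USP28 at 0.662 to 18.3 FPKM.

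USP13, a relative of USP5, stood in IV-D at 11.4, 19.2 and 28.7 FPKM up to 2C and at 0.776 FPKM at 4C. NT-D 4C embryos had 16.1 and NT-LW 4C embryos 7.93 FPKM, and by MO the 3 groups were at 0.242 to 0.503 FPKM. USP45, USP53, USP25 and USP38 were also lower after 4C in all groups, USP45 from 183 to 16.8 FPKM in IV-D. USP9X, an X-linked and essential enzyme, stood at 3.06 to 33.2 FPKM. The nuclear members USP39, a splicing factor, and USP4 and USP15 stood at 1.51 to 10.5, 0.165 to 5.36 and 13.0 to 48.0 FPKM.

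The OTUD genes were low but for OTUD6B. It stood in IV-D at 1.56, 1.29, 2.58, 69.8, 40.2, 17.9, 12.4 and 13.6 FPKM, the largest difference upward of any member from 2C to 4C (27.0-fold). In NT-D it was at 2.16, 11.9 and 45.6 FPKM at 2C, 4C and 8C, and in NT-LW at 1.71, 28.8 and 47.3 FPKM, so the clone libraries were highest at 8C where IV-D was highest at 4C. OTUD4 went from 1.77 to 15.3 FPKM between IV-D 2C and 4C embryos, with clones at 4.56 to 6.73 FPKM at both stages. OTUD3 reached 13.5 FPKM, OTUD5 7.96, OTUD1 8.28 and OTUD7B, which cuts K11-linked chains, 3.61 FPKM.

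Successive stages within groups were compared by fold rule, which calls a gene when log2(FPKM + 1) differs by more than 1 and FPKM is at least 1 in either library. From 2C to 4C in IV-D 15 members were higher and 10 lower, where 34.4% and 12.3% of all genes tested were, and after median-ratio scaling 8 and 18 [21.4% and 28.0%]. Among those with at least 10 FPKM in either library, furthest higher after OTUD6B were UBE2S (9.04-fold), OTUD4 (8.67), USP37 (6.39), USP34 (3.24) and USP14 (2.79), the last 2 under the threshold once scaled. Furthest lower were USP13 (37.0-fold), USP33 (6.46), UCHL3 (3.89), UBE2D3 (2.68), UBE2NL (2.63) and UCHL1 (2.30). From 4C to 8C 19 of 63 members tested were higher and 15 lower (35% and 28.1% of all genes; scaled, 15 and 20 [28.8% and 33.5%]). By the same limit of 10 FPKM UBE2C, USP48 (6.80-fold), UBE2B (6.21), UBE2E1 (8.54), UCHL3 (5.10) and UBE2G2 were furthest higher, and UCHL1, USP44 (27.5-fold), USP45 (10.9), USP53 (3.73), USP25 (3.95) and USP38 (3.47) furthest lower.

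Other IV-D steps held fewer calls. From OC to 1C 8 members were higher and 8 lower (13.7% and 7.64% of all genes; scaled, 7 and 9 [11.097% and 10.4%]), UBE2C, USP2 and USP28 most among the former and USP14, USP44 and USP8 among the latter. From 1C to 2C there were 3 and 13 (6.59% and 24.6%; scaled, 14 and 6 [16.7% and 12.7%]), with UBE2A and UBE2NL higher and UBE2S, USP28 and USP2 lower. From 8C to MO 3 were higher, UBE2J1 foremost, and 8 lower, led by UBE2W (6.76-fold), UCHL3 and UBE2B (12.3% and 13.6%). From MO to IT 2 were higher and 3 lower (7.7% and 7.59%; scaled, 2 and 2 [11.4% and 3.70%]), UBE2M and USP7 being those at 10 FPKM or more. From MO to TE 2 were higher and 15 lower (12% and 24.6%; scaled, 4 and 10 [17.9% and 15.2%]) and between IT and TE 2 and 11 (9.83% and 18%; scaled, 5 and 9 [11.98% and 15.4%]). UCHL1 and UBE2B were the 2 higher in TE in both, and USP48 was the furthest lower in both.

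**Figure D3:**
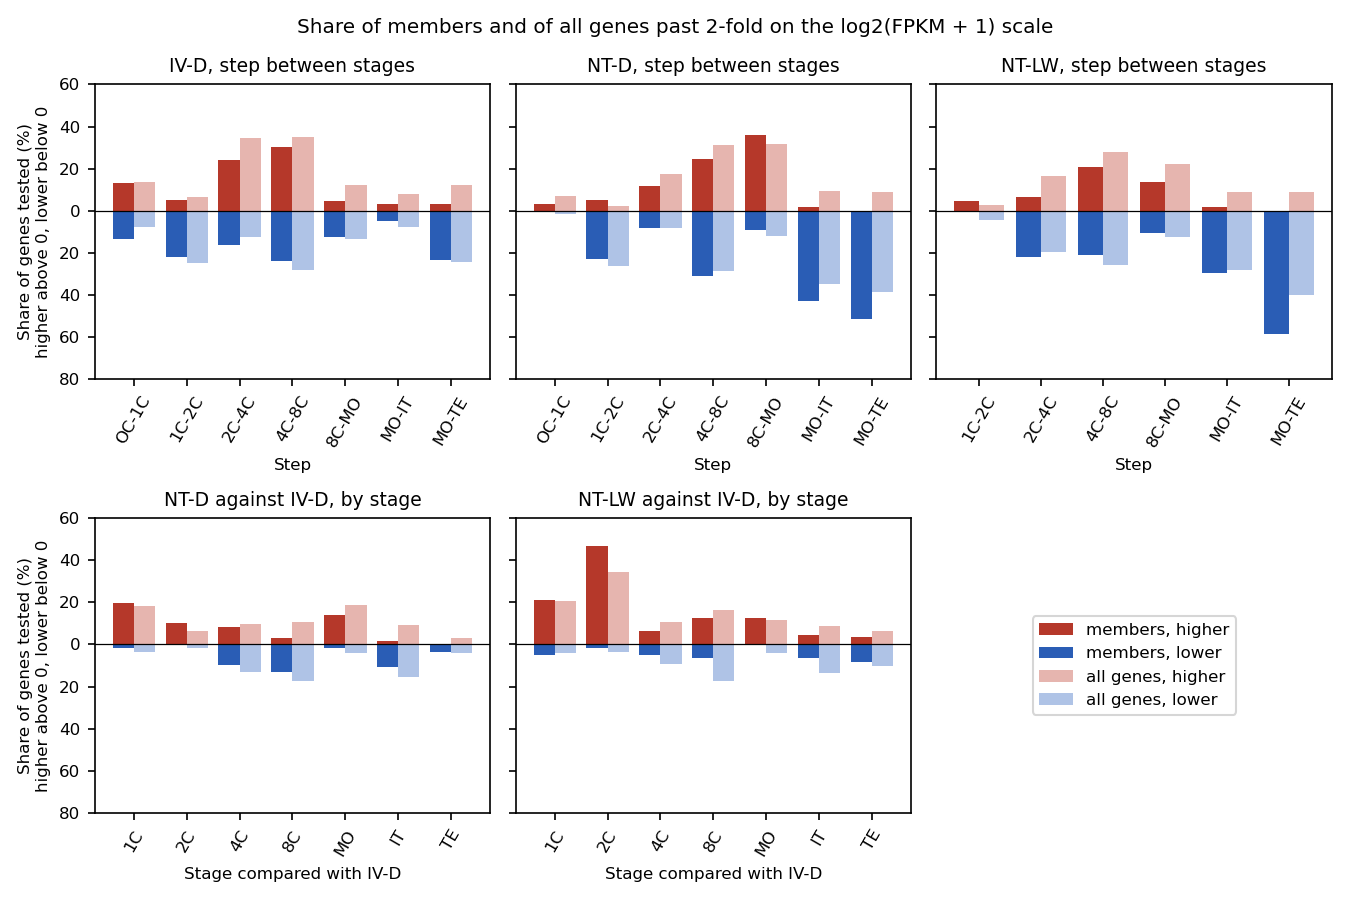
Share of members (dark bars) and of all genes of the table (pale bars) past the fold rule, in percent of genes tested, with higher above 0 and lower below it. The upper panels show steps within a group and the lower ones clone libraries against IV-D by stage. How far the members' bars lie from those of all genes differs by step. At 4C to 8C in IV-D 19 of 63 members were higher, against 35% of all genes. At MO to TE in NT-LW 0 of 63 were higher, against 8.79%.

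In clones the steps were read by the same rule. In NT-D 7 were higher and 5 lower from 2C to 4C (17.3% and 8.36% of all genes; scaled, 4 and 10 [13.6% and 13.9%]). From 4C to 8C the counts were 15 and 19 (31.4% and 28.7%). From 8C to MO they were 23 and 6 (31.6% and 12%; scaled, 12 and 13 [20.3% and 19.5%]) and from MO to IT 1 and 28 (9.31% and 35.1%; scaled, 3 and 13 [18.9% and 16.7%]). In NT-LW the 4 steps gave 4 and 14 (16.5% and 19.9%), 13 and 13 (28.1% and 25.6%; scaled, 10 and 21 [24.3% and 30.2%]), 9 and 7 (22.4% and 12.4%; scaled, 4 and 10 [15.4% and 18.1%]), and 1 and 19 (9.1% and 28.1%; scaled, 1 and 9 [16.3% and 12.04%]). The IV-D morula to IT step had 5 calls where the clone groups had 29 and 20, and after scaling 4 where they had 16 and 10. All genes differed the same way, with 7.59% lower in IV-D, 35.1% in NT-D and 28.1% in NT-LW. Scaled, these lower shares were 3.70%, 16.7% and 12.04%. Of the other clone steps, NT-D had 2 higher and 0 lower from OC to 1C (7.11% and 1.56%; scaled, 1 and 2 [3.11% and 3.59%]), 3 and 14 from 1C to 2C (2.45% and 26.5%; scaled, 12 and 10 [13.6% and 9.87%]), 0 and 33 from MO to TE (8.66% and 38.5%; scaled, 4 and 14 [19.6% and 20.2%]) and 0 and 1 between IT and TE (0.385% and 4.32%). NT-LW had 3 and 0 from 1C to 2C (2.83% and 4.31%; scaled, 3 and 0 [3.34% and 3.16%]), 0 and 37 from MO to TE (8.79% and 40.3%; scaled, 0 and 11 [18.3% and 15.3%]) and 0 and 2 between IT and TE (1.18% and 5.07%; scaled, 0 and 2 [3.18% and 3.003%]).

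Clone libraries were then set against the IV-D library of their stage. Both clone comparisons share that library, so they are not independent. Oocyte markers were higher in both clone groups at 4C, 8C and MO, by the sums given above, and their part in these results was not tested. At 4C 5 members were higher and 6 lower in NT-D (9.74% and 13.2% of all genes) and 4 and 3 in NT-LW (10.8% and 9.43%). Called in both were UBE2A, UBE2E3, UBE2NL and USP13, higher, and OTUD4, OTUD6B and UBE2K, lower. UBE2E3 in NT-LW was no longer called once scaled (0.97 on the log2 scale). At 8C there were 2 and 8 in NT-D (10.8% and 17.4%; scaled, 7 and 5 [14.1% and 13.0%]) and 8 and 4 in NT-LW (16.3% and 17.3%). UCHL1 was higher in both, and UBE2C, UBE2S and USP7 lower, of which UBE2C in NT-D was no longer called once scaled (-0.92 on the log2 scale). USP44, UBE2A and UBE2D3 were called higher in NT-LW (1.75, 1.87 and 1.16 on the log2 scale). In NT-D the differences were 0.69, 0.95 and 0.998, just short of the threshold for the last 2, and once scaled 0.85, 1.13 and 1.19, so that UBE2A and UBE2D3 were past it in both groups. At MO 9 members were higher and 1 lower in NT-D (18.7% and 3.88%; scaled, 7 and 0 [13.0% and 6.56%]), and 8 and 0 in NT-LW (11.6% and 4.07%; scaled, 3 and 2 [6.60% and 5.96%]). UCHL1 and UBE2H, an E2 of the CTLH ligase (15.7 FPKM in IV-D, 73.3 and 44.0 FPKM in clones), were higher in both.

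The 2C stage was looked at after its values were seen. In NT-LW 29 members of 62 were higher than in IV-D and 1 lower, where 34.7% and 3.51% of all genes were, and in NT-D 6 and 0 (6.48% and 1.9%). After median-ratio scaling these counts were 11 and 13 in NT-LW [12.7% and 19.3%] and 1 and 2 in NT-D [3.001% and 5.52%], and the median of all genes tested was itself 0.66 higher in NT-LW and 0.29 higher in NT-D. UBE2S is the member furthest apart there, at 12.03 FPKM in IV-D, 34.3 in NT-D and 302 FPKM in NT-LW.

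**Figure D4:**
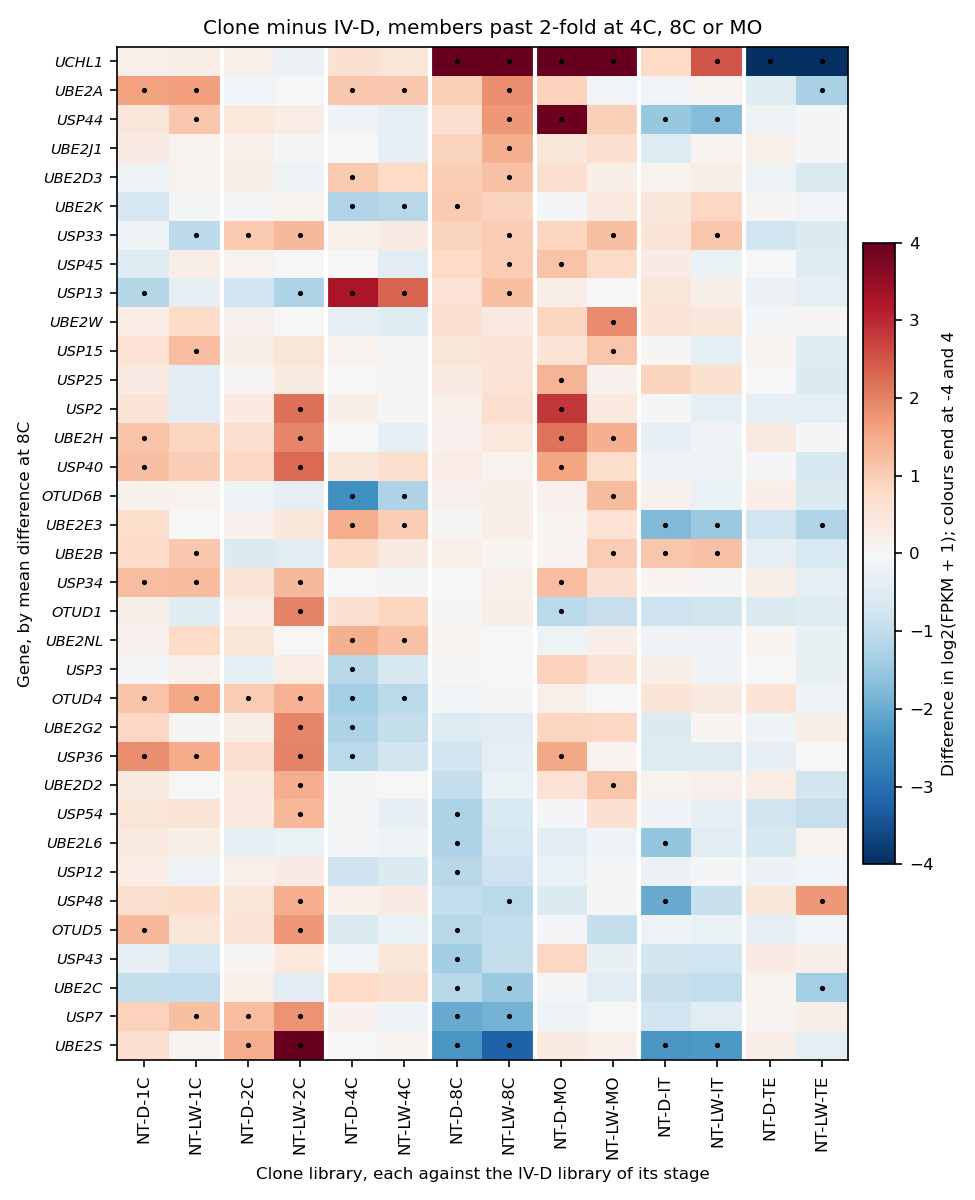
Difference in log2(FPKM + 1) of each clone library from the IV-D library of its stage, for the 35 members past the fold rule at 4C, 8C or MO in either clone group. Red is higher and blue lower in clones, colours end at -4 and 4, and dots mark calls. UCHL1 is red at 8C and MO and blue in TE, and UBE2S is blue at 8C and in IT.

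The test run was for a mean difference between groups over all stages, with stage as an additive term (limma on log2(FPKM + 1), 8547 genes, 13 residual degrees of freedom). Its p-value measures how steady a difference is over stages, not variation between embryos. With an adjusted p under 0.05 limma called 0 of 67 members in each of the 3 contrasts, where 0.0117% of all genes were called for NT-D minus IV-D, 0.246% for NT-LW minus IV-D and 0.0117% for NT-LW minus NT-D. At an unadjusted p under 0.05 the counts of members were 10, 7 and 0 of 67, and 14.8%, 16.2% and 2.23% of all genes had such a p. After median-ratio scaling the counts were 6, 3 and 1 [12.9%, 12.8% and 2.11%]. As deposited, the NT-D count was 4 without the NT-D MO library, where 10.7% of all genes had such a p. The NT-LW count was 1 without the 2C libraries, where 12.5% of all genes did. The smallest adjusted p for NT-D minus IV-D was that of USP31 (limma, 0.62 ± 0.19 SE on the log2 scale, adjusted p = 0.205, higher in 8 of 8 stages). For NT-LW minus IV-D it was that of USP47 (limma, 0.56 ± 0.19 SE, adjusted p = 0.179, higher in 6 of 7 stages). For UCHL1, UBE2C, UBE2S and USP7, whose differences change sign or size by stage, a mean over stages is a poor measure.

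By role, counts at the IV-D step from 4C to 8C were 4 higher and 1 lower of 6 APC/C E2s, 3 and 0 of 4 E2s of degradation at the endoplasmic reticulum, 2 and 1 of 4 E2s of DNA damage and H2B, and 1 and 0 of 2 E2s of ubiquitin-like proteins. They were 0 and 0 of 2 K63 chain E2s, and the 1 SCF E2 was not called. Among deubiquitinases they were 0 and 2 of 6 for histones, 0 and 0 of 2 at the proteasome, 1 and 0 of 4 in DNA repair, 1 and 1 of 3 in ubiquitin recycling, 1 and 0 of 3 of the spliceosome and nucleus, and 0 and 2 of 2 known from germ cells and embryos. With 35% and 28.1% of all genes called at this step, lists of this size are only described.

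Other genes of the pathway, outside the families, were read at the IV-D step from 4C to 8C. Of 7 E1 enzymes listed 5 were higher and 0 lower. UBA3 and NAE1, the subunits of the E1 for NEDD8, stood at 18.9 and 16.01 FPKM at 4C and at 124 and 90.8 FPKM at 8C, and were at 112 and 92.7 FPKM in NT-D and 119 and 85.7 FPKM in NT-LW 8C embryos. UBA1, the main E1 of ubiquitin, went from 1.11 to 7.07 FPKM in IV-D but stood at 2.82 and 2.93 FPKM in clone 8C libraries. Of 2 ubiquitin genes UBB was lower, at 11872 FPKM at 4C and 4573 FPKM at 8C. Of 15 other deubiquitinases 6 were higher and 2 lower, of 25 cullin-RING and APC/C subunits 8 and 2, and of 12 HECT ligases 2 and 5. The shares over all genes at this step were those given above.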

How the data were processed

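The authors amplified polyadenylated RNA with SMART-Seq v4, aligned paired reads to Sscrofa11.1 with HISAT2 2.0.4, counted them with HTSeq 0.9.1 on Ensembl genes and deposited FPKM values. Symbols came from the gene name table, positions and promoters from RefSeq (Sscrofa11.1) by symbol, for 65 of 67 members. Whole fragments (within 0.01) came out for 8591 of 8603 genes, and limits cover counting error only, since reads carried no molecular identifiers. The fold rule used log2(FPKM + 1), which understates changes of low genes. Group effects were fitted with limma 3.58.1 (R 4.3.3) on genes with at least 1 FPKM in at least 2 libraries, with Benjamini-Hochberg adjustment. Python 3.11.15, scipy 1.17.1 and matplotlib 3.10.9 were used.

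Members and lists were chosen with earlier results of these data known. Named were the 6 largest called changes each way at 2C to 4C and 4C to 8C (3 at other IV-D steps, 4 for clones at 4C, 8C and MO) with at least 10 FPKM, limma calls, all UCHL and OTUD genes, the 5 highest UBE2 and USP genes and up to 4 per role list. UBE2K at 4C, USP13 in NT-LW, UBE2S at 2C, USP31, the IT and TE differences of clones and the named pathway genes were chosen after their values were seen. The scripts were tested on simulated data. Alternatives were pseudocount 0.1, minimum FPKM 5 or none, scaling by median ratios, an exact binomial test of recovered fragments (adjusted p under 0.005) and leaving out stages or libraries.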

Additional observations from a re-analysis of the deposited data

Results flagged for a closer look

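UCHL1 is the single member whose step was called in opposite directions in IV-D and in both clone groups. From MO to TE its log2(FPKM + 1) changed by 6.55 in IV-D, from 43 fragments to 5054, by -4.41 in NT-D and by -1.71 in NT-LW. The difference between groups was not tested, since each is 1 library per stage.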

How the results depend on the processing

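Over the 8 IV-D steps 137 calls of members were made, over the 8 clone steps from 2C to IT 184 and over the 6 clone comparisons at 4C, 8C and MO 58. The pseudocount, the minimum FPKM and the scaling kept each of these totals within 1.5 times. The exact binomial test on recovered fragments, which compares 2 libraries and not 2 conditions, gave 97 calls for the clone comparisons (55 higher, 42 lower) and stayed within 1.5 times for both sets of steps. The other 7 clone steps, whose alternatives were added after the data were seen, held 95 calls, and 60 once scaled. Scaling moved the split between higher and lower at most steps, as given beside the counts. Of 83 named differences 0 changed sign with a pseudocount of 0.1 or with scaling, and 82 of 166 such values moved by more than their counting interval. Under scaling UBE2E3 in NT-LW 4C (0.97), USP48 in NT-LW 8C (-0.98), OTUD6B in NT-LW MO (0.99) and USP34 in NT-D MO (0.96) fell just short of the threshold. The limma count stayed at 0 in all 3 contrasts without each of the 8 stages, without the NT-D MO library (added after the data were seen) and in the 3 other settings. Of 11 members without overlap between early and late libraries the count was 11 without the IV-D IT or the IV-D TE library, and 12 without the NT-D MO library, with USP2 added. The last 2 were added after the data were seen. No paired analysis of replicates was possible because each group has 1 library per stage among those analysed. Some IV-D and NT-D labels end in the same number, 1, but nothing states that it marks a pair. Stage, by which libraries of the groups correspond, was already a term of the limma fit. Without 1 stage at a time the unadjusted p was under 0.05 for 4 to 14 members in NT-D and 1 to 13 in NT-LW. Of all genes 10.2% to 16.4% had such a p in NT-D and 12.5% to 18.3% in NT-LW. A value of 100 fragments or fewer is poorly fixed by counting alone, and pools of embryos add variation not measured here.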
